A study of Homo sapiens with 16 samples.

Results

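BiP (HSPA5, also called GRP78) is the HSP70 chaperone of the endoplasmic reticulum (ER), and the 10 genes described here encode proteins that act on it. They are 7 J-domain proteins (DNAJB9, DNAJB11, DNAJC1, DNAJC3, DNAJC10, DNAJC16 and DNAJC25), 2 nucleotide exchange factors (HYOU1 and SIL1) and FICD. They were chosen by name for these roles, with earlier results of these data known. Each was matched to 1 of the 58051 Ensembl genes in the count table. RNA was sequenced from LNCaP, a human prostate cancer cell line, in 4 groups of 4 libraries, to ask which genes depend on the IRE1α-XBP1 branch of the unfolded protein response.

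In the knockdown experiment, LNCaP cells received Allstar control siRNA (siCtrl) or an siRNA against XBP1 (siXBP1) for 2 days. In the inhibitor experiment they received DMSO (Vehicle) or 10 µM MKC8866, an inhibitor of the IRE1α RNase, for 24 h. All 16 libraries come from cells that were then exposed to 30 nM thapsigargin (TG), which blocks the ER calcium pump, for 3 h, so that no group shows the members in unstressed cells. The cells were of 1 line at passage 20, with 1 siRNA reagent against XBP1 and 1 dose of MKC8866. The 2 experiments have separate controls and different pretreatments, so a difference between their results cannot be told apart from a difference between a knockdown and an RNase inhibitor.

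BiP holds unfolded proteins in a cycle driven by ATP. A J-domain protein delivers a client and makes BiP hydrolyse its ATP, which closes BiP on the client, and an exchange factor then releases ADP so that ATP can bind and the client can leave. FICD attaches AMP to BiP when few clients are present, which holds BiP inactive, and removes the AMP again under stress. In ER stress, IRE1α splices the XBP1 mRNA, and the resulting transcription factor XBP1s binds ER stress response elements (ERSE) and related motifs in promoters.

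The promoters of the members are shown because XBP1s, the factor that both treatments act on, binds such elements. Windows from 250 bases before to 50 bases after the annotated start were found in RefSeq (GRCh38.p14) for 9 of the 10 members, all but DNAJC1. Both strands were searched for ERSE (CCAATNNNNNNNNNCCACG), ERSE-II (ATTGGNCCACG) and the shorter cores CCACGT and GACGTG. ERSE was found in 27 of 35116 promoters (0.0769%) and ERSE-II in 19 of them (0.0541%), while CCACGT was found in 9.72% and GACGTG in 7.81%. FICD was the member with an ERSE, which lay 154 to 136 bases before its start. HYOU1 was the member with ERSE-II, and carried it on the other strand at 185 to 175 and again at 79 to 69 bases before its start, each time overlapping a CCACGT and a GACGTG. DNAJB9 had CCACGT at 74 to 69 bases and, on the other strand, at 48 to 43 bases before its start. DNAJC3 had CCACGT at 180 to 175 bases, DNAJC10 had an overlapping CCACGT and GACGTG at 125 to 119 bases, and DNAJC25 had GACGTG at 17 to 12 bases before the start. In DNAJB11, DNAJC16 and SIL1 none of these letters were found in the window. Of the ER partners described below, HSPA5 had an ERSE at 66 to 48 bases. HSP90B1 had ERSE at 194 to 176 and, on the other strand, at 89 to 71 bases, and CCACGT at 249 to 244 bases. PDIA6 had an ERSE at 86 to 68 bases in its second window. The same window held an overlapping GACGTG and CCACGT after the start, at bases 3 to 9 counted from it. SDF2L1 had ERSE-II on the other strand at 188 to 178 bases. SEC63 had an overlapping CCACGT and GACGTG at 72 to 66 bases. After knockdown HSPA5 and HSP90B1 were higher, and PDIA6, SDF2L1 and SEC63 lower. Whether a motif goes with a response was not tested. The stretches below are written 5′ to 3′ on the strand of the gene, with the matched bases in capitals. They span chr12:108515093-108515171 (plus strand) for FICD, chr11:119057244-119057422 (minus strand) for HYOU1, chr7:108569770-108569861 (plus strand) for DNAJB9, chr13:95676929-95676994 (plus strand) for DNAJC3, chr2:182716102-182716168 (plus strand) for DNAJC10, chr9:111631287-111631333 (plus strand) for DNAJC25 and, for comparison, chr9:125241361-125241439 (minus strand) for HSPA5.
FICD: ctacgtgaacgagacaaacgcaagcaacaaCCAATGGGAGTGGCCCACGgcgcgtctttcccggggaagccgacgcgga
HSPA5: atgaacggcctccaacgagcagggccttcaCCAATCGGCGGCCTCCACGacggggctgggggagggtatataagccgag
HYOU1: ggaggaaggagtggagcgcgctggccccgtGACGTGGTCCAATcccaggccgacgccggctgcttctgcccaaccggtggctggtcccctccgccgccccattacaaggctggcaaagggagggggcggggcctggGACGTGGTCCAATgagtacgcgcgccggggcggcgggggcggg
DNAJB9: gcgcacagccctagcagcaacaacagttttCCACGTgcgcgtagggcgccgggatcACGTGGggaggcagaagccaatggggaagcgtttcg
DNAJC3: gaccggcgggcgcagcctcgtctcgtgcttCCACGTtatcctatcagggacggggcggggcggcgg
DNAJC10: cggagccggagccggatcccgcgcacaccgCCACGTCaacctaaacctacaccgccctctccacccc
DNAJC25: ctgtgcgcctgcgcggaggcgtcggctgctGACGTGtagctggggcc

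**Figure D1:**
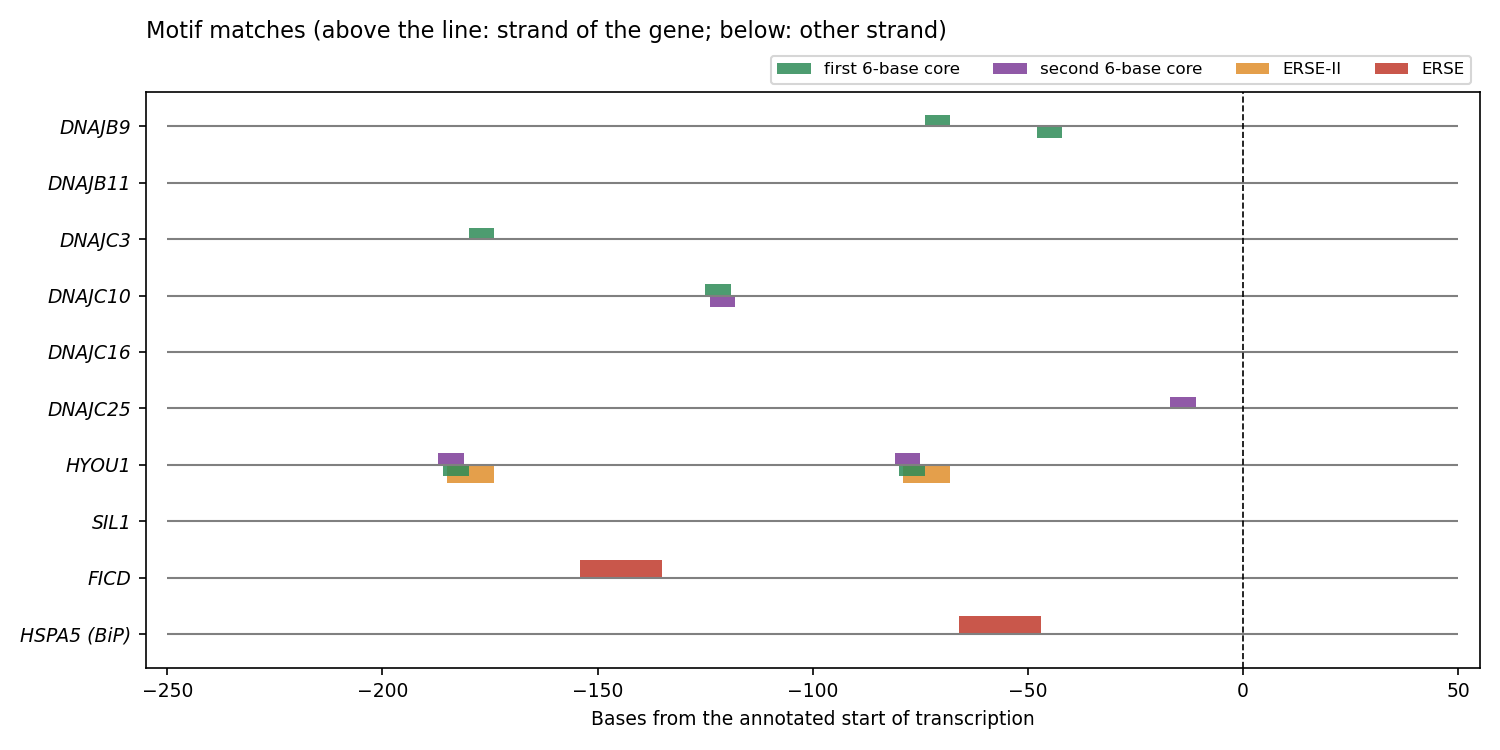
Motif matches in the promoters of 9 members and of HSPA5, by distance in bases from the annotated start, with matches on the strand of the gene above each line and matches on the other strand below it. The first 6-base core is CCACGT and the second is GACGTG. FICD and HSPA5 each hold 1 ERSE, HYOU1 holds 2 ERSE-II, and the lines of DNAJB11, DNAJC16 and SIL1 are empty.

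Between 28713607 and 34509488 fragments were counted per library. Log2 counts of libraries of one group had Pearson correlations of 0.995 to 0.997, and edgeR's common biological coefficient of variation came to 5.40% (knockdown) and 4.97% (inhibitor). The 6 markers of LNCaP and luminal prostate summed to 2892 to 3049 CPM in siCtrl and 2455 to 2484 CPM in siXBP1, and to 2899 to 3008 CPM in Vehicle and 3256 to 3376 CPM in MKC8866. KLK3, the gene of prostate-specific antigen, was lower after knockdown (log2 fold change −0.86, adjusted p = 1.09e-13) and higher with MKC8866 (0.46, adjusted p = 2.75e-08), and the part of such shifts in the members' results was not tested. The 3 leukocyte and 2 endothelial markers to at most 0.0917 and 0.102 CPM. The 3 basal markers summed to at most 1.46 CPM and the 3 fibroblast markers to 24.9 to 36.3 CPM, where COL1A1 was the 1 fibroblast gene above 1 CPM in all libraries. XBP1 itself had 383.6 ± 29.5 CPM in siCtrl and 53.4 ± 1.32 CPM in siXBP1 (SD, n = 4), a fall of 86.1% (adjusted p = 2.92e-20). With MKC8866, which blocks splicing of the XBP1 mRNA, XBP1 counts rose from 501.0 ± 25.6 to 577.3 ± 30.7 CPM (log2 fold change 0.20 ± 0.04 (SE), adjusted p = 0.00493), and these counts do not separate the spliced from the unspliced mRNA. CPM are counts per 1000000 fragments after TMM scaling, that is, shares of the RNA. They do not measure the number of cells or the RNA per cell. They also do not show whether fewer cells held an mRNA or each cell held less of it. The study calls the libraries of a group independent samples, but no source used here says whether they came from separate cultures, and the p-values measure the spread between these libraries, which may be in part technical.

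After XBP1 knockdown 8 of the 10 members were lower and none was higher, where 18.2% of the 21021 genes tested were called lower and 16.5% were called higher (adjusted p under 0.05, edgeR's quasi-likelihood test, two-sided, here and throughout). With MKC8866 7 of the 10 were lower and none was higher, where 3.11% of the 21045 genes tested were called lower and 1.36% higher. Because the members were chosen with earlier results of these data known, these counts describe the list and do not test it. FICD and DNAJB9 fell 4.96-fold to 5.75-fold after knockdown and 3.65-fold to 4.17-fold with MKC8866, and every other member that fell did so by at most 1.70-fold. SIL1 and DNAJC16 were lower after knockdown alone, DNAJB11 was lower with MKC8866 alone, and DNAJC1 was called in neither comparison. An interaction test called the difference between experiments for SIL1, DNAJC16 and DNAJB11. The median log2 fold change of the 10 members was −0.54 after knockdown and −0.40 with MKC8866, and over all genes tested it was 0.00 in both. In the knockdown experiment the 4 siXBP1 libraries lay below all 4 siCtrl libraries for 8 members, as for 16.7% of all genes tested. In the inhibitor experiment the 4 MKC8866 libraries lay below all 4 Vehicle libraries for 7 members, as for 5.15% of all genes tested.

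**Figure D2:**
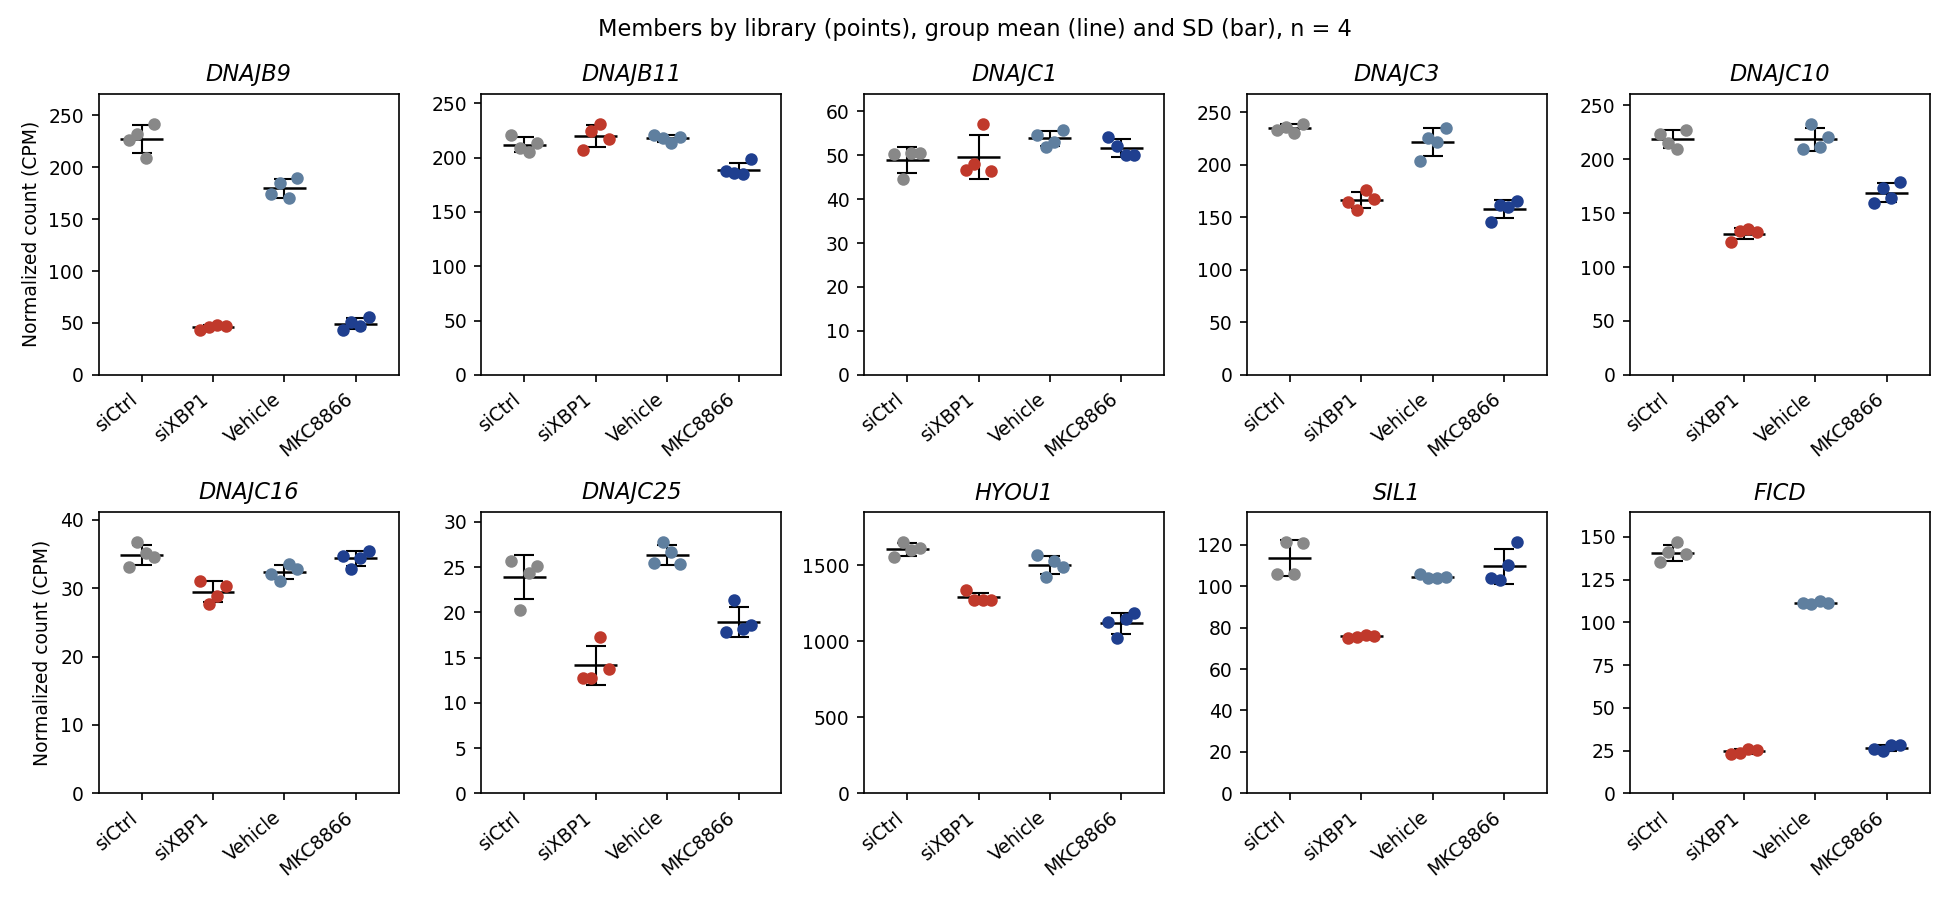
Normalized counts (CPM, linear axis from 0) of the 10 members in each of the 16 libraries, with the group mean (line) and SD (bar, n = 4). FICD and DNAJB9 show the widest gaps, from 140.7 to 24.5 CPM and from 227.2 to 45.9 CPM between the means of siCtrl and siXBP1, and the groups of DNAJC1 overlap.

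Per kilobase of exon, HYOU1 had the highest level of the 10 members in all 4 groups, with 208.6 ± 5.35 CPM per kb in siCtrl and 195.3 ± 7.92 CPM per kb in Vehicle (SD, n = 4). In siCtrl it was followed by DNAJB9 (80.1 ± 4.89 CPM per kb), DNAJC3 (42.0 ± 0.675), DNAJB11 (37.0 ± 1.22), FICD (33.0 ± 1.11), SIL1 (28.3 ± 2.16) and DNAJC1 (19.6 ± 1.19), and no neighbours in this stretch of the order overlapped. DNAJC10 (10.0 ± 0.375 CPM per kb) and DNAJC25 (9.24 ± 0.950) came next and overlapped each other, and DNAJC16 (4.08 ± 0.173) was lowest. The level of DNAJC10 is divided by 21826 bases of merged exons, against 2501 to 8563 bases for the other members, and is therefore low for its count. BiP, at 980.5 ± 45.9 CPM per kb in siCtrl, was above every member. DNAJB9 moved from the second place in both controls to the sixth in siXBP1 and in MKC8866, and FICD moved from the fifth place to the eighth and the ninth. The place of FICD is not exact in each group, since it overlapped SIL1 in Vehicle and DNAJC10 and DNAJC25 in siXBP1. Of the summed level per kb of the 10 members, DNAJB9 made up 16.96% in siCtrl and 5.20% in siXBP1, and 14.6% in Vehicle and 5.85% in MKC8866. FICD went from 6.99% to 1.85% and from 6.02% to 2.11% of the same sum. HYOU1 made up 44.2% in siCtrl and 53.8% in siXBP1, and 45.00% in Vehicle and 48.9% in MKC8866.

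FICD, the enzyme that adds AMP to BiP and takes it off, was the member that fell most in both experiments. Its 4 siCtrl libraries had 135.4, 140.9, 146.9 and 139.7 CPM. The 4 siXBP1 libraries had 22.9, 23.8, 25.8 and 25.6 CPM, so that the highest of them lay far below the lowest control. This was a fall of 82.6% (log2 fold change −2.52 ± 0.05 (SE), adjusted p = 1.38e-19). The Vehicle libraries had 111.4, 110.5, 112.4 and 111.3 CPM, and the MKC8866 libraries 25.9, 24.7, 28.2 and 28.1 CPM, again without overlap. FICD thus fell by 76.0% with MKC8866 (log2 fold change −2.06 ± 0.05, adjusted p = 6.61e-19). Of the 654 genes called lower with MKC8866 FICD had the smallest p-value, and of the 3836 called lower after knockdown XBP1 was the 1 gene with a smaller one. The levels of the treated groups, 24.5 ± 1.41 CPM in siXBP1 and 26.7 ± 1.73 CPM in MKC8866, overlapped, while siCtrl lay above Vehicle in all libraries. FICD spans chr12:108515185-108525837 on the plus strand, and 21 of its 4267 exonic bases are shared with SART3 on the other strand. SART3, at 150.4 CPM in siCtrl, was lower after knockdown (log2 fold change −0.23, adjusted p = 0.000368) and had a log2 fold change of −0.05 with MKC8866 (adjusted p = 0.761).

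DNAJB9 (ERdj4), a small soluble J-domain protein that also brings BiP to IRE1α, followed FICD closely. The siCtrl libraries had 226.0, 232.0, 208.9 and 241.9 CPM, and the siXBP1 libraries 43.0, 45.6, 48.2 and 46.8 CPM. No siXBP1 library came near a control, and DNAJB9 fell by 79.8% (log2 fold change −2.31 ± 0.05, adjusted p = 4.11e-19). The Vehicle libraries had 174.0, 184.8, 170.4 and 189.8 CPM, and the MKC8866 libraries 43.2, 51.2, 47.3 and 55.5 CPM. This was a fall of 72.6% without overlap (log2 fold change −1.87 ± 0.06, adjusted p = 9.75e-17). Like FICD, DNAJB9 was higher in every siCtrl library than in any Vehicle library, and its treated groups overlapped. DNAJB9 shares 183 of its 2837 exonic bases with genes on the other strand, THAP5 and PNPLA8, and counting ignored strand. THAP5 was lower too, with log2 fold changes of −0.84 after knockdown (adjusted p = 3.94e-13) and −0.68 with MKC8866 (adjusted p = 3.15e-10). PNPLA8 was lower by 0.15 and 0.21 on the log2 scale (adjusted p = 0.00545 and 0.00171). Fragments that overlap 2 genes were not counted, and the part of either gene in the values of the other was not tested.

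DNAJC3 (P58IPK), a soluble J-domain protein that binds unfolded clients itself, fell by nearly the same amount in both experiments. Its siCtrl libraries had 233.0, 236.5, 230.7 and 239.2 CPM, and its siXBP1 libraries 164.9, 157.3, 175.8 and 167.4 CPM. The groups stood apart, with a fall of 29.4% (log2 fold change −0.50 ± 0.04, adjusted p = 1.26e-09). The Vehicle libraries had 203.9, 225.6, 221.4 and 235.3 CPM, and the MKC8866 libraries 145.9, 161.6, 160.0 and 165.7 CPM. These groups did not overlap either, and the fall was 28.6% (log2 fold change −0.49 ± 0.05, adjusted p = 7.48e-08). The difference between both responses was −0.01 on the log2 scale, with a 95% interval of −0.14 to 0.12. No exonic base of DNAJC3 is shared with another gene.

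DNAJC10 (ERdj5), a J-domain protein with thioredoxin domains that reduces disulfides of clients for degradation, fell further after knockdown. The siCtrl libraries had 223.5, 215.0, 209.1 and 227.2 CPM, against 123.1, 133.1, 135.0 and 132.2 CPM in siXBP1. This was a fall of 40.3% (log2 fold change −0.74 ± 0.04, adjusted p = 3.75e-12). The Vehicle libraries had 209.2, 233.0, 211.8 and 220.2 CPM, against 159.3, 173.2, 163.8 and 178.8 CPM in MKC8866, a fall of 22.9% (log2 fold change −0.37 ± 0.04, adjusted p = 2.26e-06). The groups stood apart in both experiments, and the siXBP1 libraries also lay below all MKC8866 libraries.

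DNAJC25 (ERdj7), a membrane J-domain protein of the ER, had the lowest counts of the members, with 367 fragments in its weakest library. It had 25.7, 20.3, 24.4 and 25.2 CPM in siCtrl and 12.7, 12.7, 17.3 and 13.8 CPM in siXBP1. The highest siXBP1 library, replicate 3, and the lowest siCtrl library, replicate 2, came closest to each other without overlapping, and DNAJC25 fell by 41.1% (log2 fold change −0.76 ± 0.09, adjusted p = 6.63e-07). In the inhibitor experiment it had 25.4, 27.8, 26.7 and 25.4 CPM in Vehicle and 17.8, 21.4, 18.1 and 18.6 CPM in MKC8866, a fall of 28.0% (log2 fold change −0.47 ± 0.06, adjusted p = 1.77e-05). DNAJC25 shares 358 of its 2586 exonic bases with the readthrough gene DNAJC25-GNG10 on the same strand, which was listed at 0.00844 CPM in Vehicle and at 0 in the other groups, and fragments that overlap both genes were not counted.

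DNAJC16 (ERdj8), also a membrane J-domain protein, changed least of the members lower after knockdown. It had 33.2, 36.8, 35.1 and 34.6 CPM in siCtrl and 31.1, 27.6, 28.8 and 30.3 CPM in siXBP1. The groups were close but separate, with a fall of 15.8% (log2 fold change −0.25 ± 0.05, adjusted p = 0.000803). With MKC8866 its mean went from 32.4 ± 1.08 to 34.4 ± 1.07 CPM, which was not called (log2 fold change 0.08, 95% interval −0.02 to 0.19, adjusted p = 0.475).

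DNAJB11 (ERdj3), an abundant soluble J-domain protein that binds clients and hands them to BiP, was called in the inhibitor comparison and not after knockdown. It had 221.1, 208.7, 204.8 and 213.1 CPM in siCtrl and 207.2, 224.9, 231.3 and 217.0 CPM in siXBP1. These groups overlapped, and the change was not called (log2 fold change 0.05, 95% interval −0.04 to 0.14, adjusted p = 0.409). In the inhibitor experiment DNAJB11 had 220.4, 218.3, 213.4 and 218.7 CPM in Vehicle and 187.5, 185.7, 184.5 and 198.4 CPM in MKC8866. All MKC8866 libraries were lower, with a fall of 13.3% (log2 fold change −0.21 ± 0.04, adjusted p = 0.000855). DNAJB11 shares 1328 of its 5731 exonic bases (23.2%) with other genes, which is the largest share among the members. Of these genes TBCCD1 was at 22.2 CPM in siCtrl, and HRG-AS1 was at most at 0.138 CPM in any group mean.

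DNAJC1 (ERdj1), a membrane J-domain protein that also contacts the ribosome, was not called in either comparison. It had 50.2, 44.5, 50.6 and 50.6 CPM in siCtrl and 46.6, 48.0, 57.2 and 46.5 CPM in siXBP1, so that the ranges overlapped (log2 fold change 0.01, 95% interval −0.12 to 0.14, adjusted p = 0.912). In Vehicle it had 54.6, 52.0, 53.1 and 55.7 CPM and in MKC8866 54.2, 52.0, 50.0 and 50.1 CPM, again with overlap (log2 fold change −0.06, 95% interval −0.16 to 0.03, adjusted p = 0.595).

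HYOU1 (GRP170), a large HSP70-related protein and the more abundant exchange factor, fell in both experiments. The siCtrl libraries had 1552, 1652, 1602 and 1614 CPM, and the siXBP1 libraries 1335, 1272, 1274 and 1275 CPM. All siXBP1 libraries were lower, with a fall of 19.9% (log2 fold change −0.32 ± 0.04, adjusted p = 3.01e-07). In the inhibitor experiment the Vehicle libraries had 1567, 1425, 1529 and 1488 CPM, and the MKC8866 libraries 1124, 1022, 1146 and 1183 CPM. The groups stood apart, with a fall of 25.6% (log2 fold change −0.43 ± 0.04, adjusted p = 9.63e-08). An antisense gene without a symbol overlaps 666 of the 7694 exonic bases of HYOU1 and had no counts. Fragments that overlap both genes were not counted, so this lack of counts does not show that the antisense gene was silent.

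SIL1, the other exchange factor, which opens the nucleotide pocket of BiP, showed the largest difference between experiments. It had 105.9, 121.2, 106.1 and 120.7 CPM in siCtrl and 75.2, 75.3, 76.5 and 76.0 CPM in siXBP1. Every siXBP1 library was lower than every control, and SIL1 fell by 33.4% (log2 fold change −0.59 ± 0.05, adjusted p = 1.30e-09). In Vehicle it had 105.8, 103.9, 104.1 and 104.5 CPM and in MKC8866 103.7, 103.0, 110.4 and 121.1 CPM. These groups overlapped, and the change was not called (log2 fold change 0.07, 95% interval −0.03 to 0.16, adjusted p = 0.570). A fall of more than 0.03 on the log2 scale was outside this interval.

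**Figure D3:**
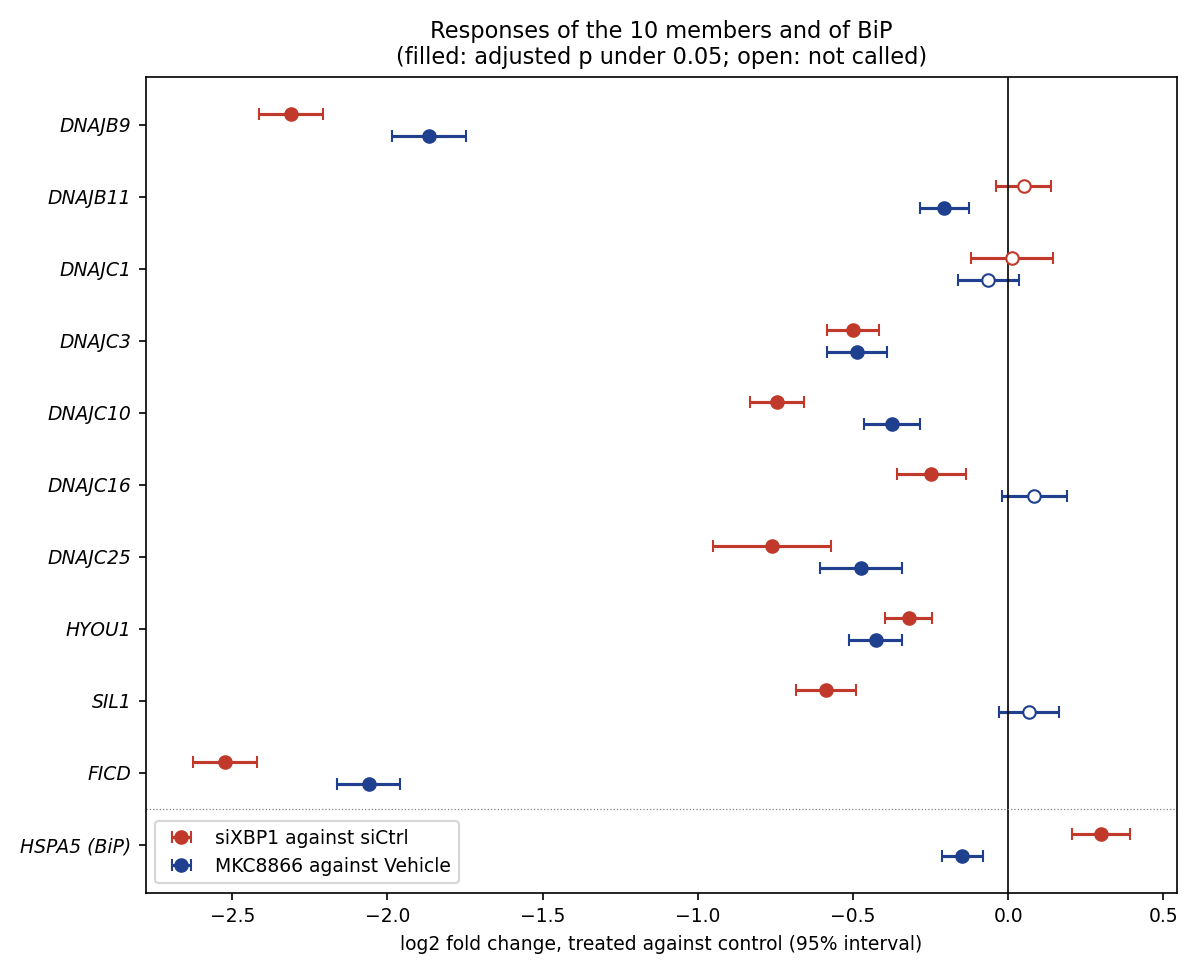
Log2 fold changes of the 10 members and of HSPA5 in siXBP1 against siCtrl and in MKC8866 against Vehicle, with 95% intervals from edgeR's quasi-likelihood fit. Filled points passed an adjusted p of 0.05 and open points did not. FICD and DNAJB9 lie between −2.52 and −1.87, and the other members between −0.76 and 0.08.

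The difference between the responses was tested as an interaction in 1 fit of all 16 libraries, for 20357 genes. Of the 10 members, 5 responded more negatively to knockdown than to MKC8866, as did 12.7% of the genes tested, and 1 responded more positively, as did 10.6% of them. SIL1 had the largest difference, with a knockdown minus inhibitor value of −0.65 ± 0.07 on the log2 scale (SE, adjusted p = 1.09e-08). FICD (−0.46 ± 0.07, adjusted p = 4.65e-06) and DNAJB9 (−0.44 ± 0.08, adjusted p = 0.000103) also fell further after knockdown, and so did DNAJC10 (−0.37 ± 0.06, adjusted p = 3.75e-05). For FICD and DNAJB9 the treated groups overlapped in CPM and the controls did not, since siCtrl was above Vehicle. DNAJC16, lower after knockdown and not called with MKC8866, differed by −0.33 ± 0.07 (adjusted p = 0.000670). DNAJB11 was the member with a difference in the other direction, of 0.26 ± 0.06 (adjusted p = 0.000744). The difference was not called for DNAJC25 (−0.29, 95% interval −0.53 to −0.04, adjusted p = 0.0853), HYOU1 (0.11, −0.01 to 0.23, adjusted p = 0.176) or DNAJC1 (0.08, −0.09 to 0.25, adjusted p = 0.553). For DNAJC25 the call depended on the fit, since with all libraries kept it was called with the replicate number as a block (−0.29, adjusted p = 0.0266) and with no filter on low counts (−0.29, adjusted p = 0.0271), and it was also called without siCtrl replicate 2 (−0.36, adjusted p = 0.0194) and without siXBP1 replicate 3 (−0.40, adjusted p = 0.00710).

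BiP itself moved in opposite directions in the 2 experiments. HSPA5 had 3893, 3565, 3947 and 3923 CPM in siCtrl and 4620, 4594, 5116 and 4577 CPM in siXBP1, and every siXBP1 library was higher (log2 fold change 0.30 ± 0.05, adjusted p = 1.69e-05). With MKC8866 it went from 3785 ± 29.9 to 3421 ± 89.3 CPM, without overlap (log2 fold change −0.15 ± 0.03, adjusted p = 0.00476). Set against the BiP counts of the same library, the 10 members together had 747.9 ± 46.6 fragments per 1000 fragments of BiP in siCtrl and 433.6 ± 19.5 in siXBP1 (SD, n = 4). In the inhibitor experiment they had 705.2 ± 14.3 in Vehicle and 563.3 ± 33.0 in MKC8866. HYOU1 alone gave 419.9 of the 747.9 fragments in siCtrl, and without it the other members had 328.0 ± 18.4, 160.2 ± 4.52, 308.1 ± 8.19 and 236.0 ± 12.8 fragments in siCtrl, siXBP1, Vehicle and MKC8866. The treated groups stayed below their controls with and without HYOU1. Relative to BiP, FICD had 36.8 ± 2.08 fragments in siCtrl and 5.19 ± 0.285 in siXBP1, and 29.4 ± 0.262 in Vehicle and 7.81 ± 0.515 in MKC8866. DNAJB11, not called in counts after knockdown, went from 55.4 ± 2.90 to 46.6 ± 1.93 fragments per 1000 of BiP while BiP was higher, without overlap. With MKC8866 DNAJB11 went from 57.5 ± 1.21 to 55.3 ± 3.04, and these groups overlapped. SIL1 had 29.7 ± 3.36 fragments in siCtrl and 16.1 ± 0.745 in siXBP1, against 27.6 ± 0.406 in Vehicle and 32.1 ± 2.81 in MKC8866. These ratios are given as a description, and longer mRNAs give more fragments.

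**Figure D4:**
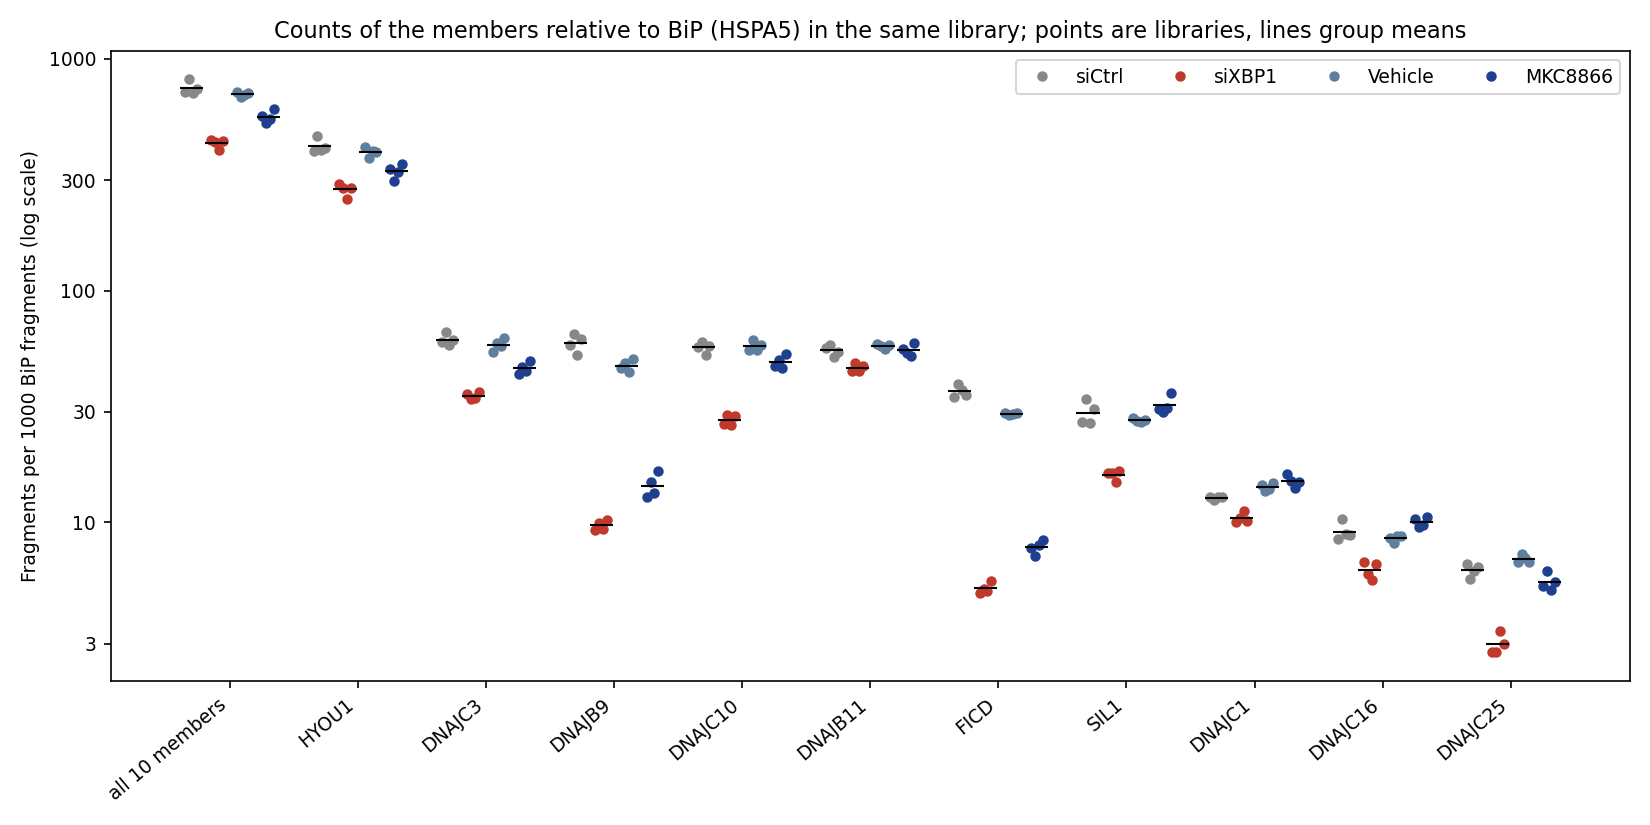
Fragments of each member, and of all 10 together, per 1000 fragments of BiP (HSPA5) in the same library on a log scale, with a point for each of the 16 libraries and a line at each group mean. All 10 together lie at 714.1 to 815.7 in siCtrl and 404.7 to 446.3 in siXBP1, and at 687.2 to 719.2 in Vehicle and 530.7 to 608.0 in MKC8866.

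Of 8 genes for BiP and further ER partners, 3 were lower and 3 were higher after knockdown, and with MKC8866 5 were lower and none was higher, beside the shares of all genes given above for each direction (18.2% and 16.5% after knockdown, 3.11% and 1.36% with MKC8866). SEC63, the J-domain protein of the translocation channel, was lower in both comparisons, with log2 fold changes of −0.49 ± 0.04 (adjusted p = 3.00e-09) and −0.35 ± 0.04 (adjusted p = 2.73e-07). PDIA6, a disulfide isomerase, was lower in both (−0.32, adjusted p = 2.26e-06, and −0.17, adjusted p = 0.00335), and so was SDF2L1, a partner of DNAJB11 (−0.23, adjusted p = 0.000321, and −0.49, adjusted p = 9.63e-08). HSP90B1 (GRP94), the HSP90 of the ER, was higher after knockdown with BiP (0.27, adjusted p = 2.45e-05) and was not called with MKC8866 (0.01, adjusted p = 0.912). MANF, which slows nucleotide release from BiP, was higher after knockdown (0.15, adjusted p = 0.00989), although its libraries overlapped there, and lower with MKC8866 (−0.23, adjusted p = 0.00396). SDF2 and CDNF were called in neither, at 21.6 and 2.54 CPM in siCtrl. The median of the 8 genes was −0.04 after knockdown and −0.16 with MKC8866, beside −0.54 and −0.40 for the 10 members. The difference between the responses was positive for HSPA5 (0.45 ± 0.06, adjusted p = 6.08e-07), MANF (0.38, adjusted p = 0.000125), HSP90B1 (0.26, adjusted p = 0.000902) and SDF2L1 (0.26, adjusted p = 0.00368). It was negative for SEC63 (−0.14), with an adjusted p of 0.0494 that missed the threshold in 15 of 21 alternatives. PDIA6 had a similar difference (−0.15, adjusted p = 0.0502), which passed the threshold in 6 of 21 alternatives, the fit with the replicate block among them (adjusted p = 0.0284).

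J-domain proteins and HSP70 partners that work outside the ER lumen were called in both directions after knockdown. Of 34 such J-domain genes, 12 were lower and 8 higher after knockdown (median log2 fold change −0.06), and 2 were lower and none higher with MKC8866 (median −0.00). For comparison, 18.2% of all genes were lower and 16.5% higher after knockdown, and 3.11% lower and 1.36% higher with MKC8866, so that the 2 of 34 with MKC8866 lie near the share over all genes. The largest changes after knockdown were those of DNAJC27 (−1.55, adjusted p = 6.27e-13), DNAJA4 (1.31, adjusted p = 0.00384, at under 1 CPM in both group means) and DNAJA2 (−1.11, adjusted p = 2.01e-14). DNAJC12 (−0.37, adjusted p = 0.000497) and DNAJB5 (−0.32, adjusted p = 9.16e-05) were the genes called with MKC8866. Of 16 HSP70 proteins and exchange factors outside the ER lumen, 6 were lower and 4 higher after knockdown, with BAG3 (−0.53, adjusted p = 9.54e-09), BAG1 (0.38, adjusted p = 0.000464) and BAG4 (−0.35, adjusted p = 1.60e-05) changing most. With MKC8866 BAG3, an exchange factor of cytosolic HSP70, was the gene called (−0.31, adjusted p = 4.01e-05), and 1 of 16 is likewise near the 3.11% of all genes.

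The genes whose log2 CPM followed a member most closely over the 16 libraries were sought among 15037 genes with a mean of at least 1 CPM, by Pearson's r, given as a measure of likeness and without a test because the libraries form groups and share their depth. FICD and DNAJB9 were each other's closest gene (r = 0.996). After DNAJB9, FICD was most like GORASP2 (r = 0.993), a Golgi stacking protein, and WFS1 (r = 0.991), a membrane protein of the ER. DNAJB9 was next most like EDEM3 (r = 0.994), a mannosidase of ER-associated degradation, and THAP5 (r = 0.991), the gene whose exons it shares in part. DNAJC3 was most like HSPA13 (r = 0.977), an HSP70 protein of the ER, then MCFD2 (r = 0.977) and TMED7 (r = 0.976), which serve cargo transport from the ER. HYOU1 was most like CANT1 (r = 0.977), SPRYD3 (r = 0.974) and SLC35C1 (r = 0.969). All of these genes were lower in both comparisons, from −1.15 (WFS1) to −0.30 (SLC35C1) on the log2 scale after knockdown and from −0.92 (WFS1) to −0.43 (SLC35C1) with MKC8866, FICD and DNAJB9 apart.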

How the data were processed

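Strand-specific paired-end libraries were made with the TruSeq kit. According to the methods, the notes and the file header, the authors aligned reads to GRCh38 with STAR 2.5.2a and counted fragments per gene with featureCounts 1.5.0-p3 on Ensembl release 85. The deposited values are raw counts. By the options in the header, strand was ignored, and fragments mapping to several places or overlapping 2 genes were dropped. Exon length per gene is a further deposited column.

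siXBP1 was set against siCtrl and MKC8866 against Vehicle in R 4.3.3 with edgeR 4.0.16 (TMM, quasi-likelihood F test, two-sided, Benjamini-Hochberg adjustment over all genes tested), keeping genes with over 5 counts in 1 or more libraries of both groups, and the responses were compared by an interaction. CPM use TMM library sizes, and CPM per kb divide by exon length. SEs follow from the F statistic. The fits were tested on simulated data. Alternatives used DESeq2 1.42.0, other scaling and filters, a replicate block, 1 fit of all libraries, a stricter threshold and the removal of each library. Of the 58051 genes 56948 had a symbol. Python analyses used numpy 2.4.6, pandas 2.3.3, scipy 1.17.1 and matplotlib 3.10.9. Promoters came from RefSeq (GRCh38.p14).

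The members and lists were chosen with earlier results of these data known. Named are the members, XBP1, the 8 ER partners, genes sharing exons with a member, the 3 genes most like FICD, DNAJB9, DNAJC3 and HYOU1, and the 3 largest called changes of the other lists.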

Additional observations from a re-analysis of the deposited data

Results flagged for a closer look

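In 6 of 76 sets of 4 libraries tested for the members, XBP1 and the ER partners, 1 library stood far from the other 3, and chance gives about 1 in 20. After knockdown and in its control these were the same libraries for DNAJC1 and BiP. Replicate 2 was the lowest siCtrl library for both, with 44.5 CPM of DNAJC1 and 3565 CPM of HSPA5, and replicate 3 was the highest siXBP1 library, with 57.2 CPM of DNAJC1 and 5116 CPM of HSPA5. Without siXBP1 replicate 3 the knockdown log2 fold change of HSPA5 was 0.26 (adjusted p = 3.23e-05), and without siCtrl replicate 2 it was 0.27 (adjusted p = 5.75e-05), against 0.30 with all libraries. HYOU1 had 1335 CPM in siXBP1 replicate 1, above the other 3 libraries, and CDNF had 1.87 CPM in siXBP1 replicate 3, below them.

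The response to knockdown and the response to MKC8866 differed, by the interaction test, for 6 members. Of all 20357 genes tested, 12.7% responded more negatively to knockdown than to MKC8866 and 10.6% more positively. The knockdown minus inhibitor difference was −0.65 for SIL1, −0.46 for FICD, −0.44 for DNAJB9, −0.37 for DNAJC10 and −0.33 for DNAJC16 on the log2 scale. It was 0.26 for DNAJB11. Among the ER partners it was 0.45 for HSPA5, 0.38 for MANF, 0.26 for HSP90B1, 0.26 for SDF2L1 and −0.14 for SEC63. PDIA6 had nearly the same value as SEC63, −0.15, with an adjusted p of 0.0502 against 0.0494, so that these genes lie on either side of the threshold by a narrow margin. The kind of inhibition and the experiment cannot be told apart in any of these differences.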

How the results depend on the processing

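The 10 members kept their side of the threshold in 150 of 150 alternative values of the knockdown comparison, in 150 of 150 of the inhibitor comparison and in 206 of 210 of the difference. The sign turned in 2 values of DNAJC1 after knockdown (−0.02 without siCtrl replicate 2, −0.06 without siXBP1 replicate 3) and in 3 values of the DNAJC3 difference, which reached 0.02, and none of these was called. The 4 values that changed side belong to DNAJC25, whose difference passed the threshold with no filter on low counts (−0.29, adjusted p = 0.0271), with the replicate block (−0.29, adjusted p = 0.0266) and without siCtrl replicate 2 or siXBP1 replicate 3. The difference for SEC63 missed the threshold in 15 of 21 alternatives (adjusted p 0.00952 to 0.129), and that for PDIA6 passed it in 6 of 21. Same-numbered libraries deviated together from their group means with r of 0.00773 to 0.0607 in the knockdown experiment and of 0.0808 to 0.328 in the inhibitor experiment. Libraries of unlike number had r of −0.133 to 0.120 and of −0.216 to 0.138. In the inhibitor experiment 3 of 4 same-numbered pairs passed 0.1. Because not every pair did, the numbers were not taken to pair the libraries, although a pairing in the inhibitor experiment remains possible. With the replicate block, 1484 genes were lower and 1262 higher with MKC8866, against 654 and 287 without it, and the block changed no call of a member in either comparison. The lists outside the ER lumen did change with the block. Of their 34 J-domain genes 3 were then lower and 2 higher with MKC8866, and of their 16 HSP70 proteins and exchange factors 2 and 1. The count of genes higher with MKC8866 was 139 at an adjusted p under 0.01 and went from 180 to 484 when single libraries were left out. Fragments of the members per 1000 of BiP without HYOU1 were 328.0, 160.2, 308.1 and 236.0 in siCtrl, siXBP1, Vehicle and MKC8866. The cause of these shifts was not tested. At this depth every member had at least 367 fragments in every library.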
